A study of Mus musculus with 8 samples.

Results

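Genes of the interferon response and of MHC class I antigen presentation were followed across the cell classes of the mouse intervertebral disc at 2 ages. The 35 members were chosen by name from the 31053 genes of the matrices, and all 35 were found there. They fall into 10 genes that build, feed or load class I molecules and 25 interferon-response genes. Whole discs (lumbar L1 to L6 and tail T5 to T9) came from Tagln-CreERt2; R26tdTomato mice, in which a tamoxifen-activated Cre under Tagln control switches on a tdTomato reporter in the Rosa26 locus. All mice carried both alleles and were given tamoxifen at P5, and discs were taken at postnatal day 10 (P10) or at 8 weeks for droplet single-cell RNA sequencing. The question of the series is whether progenitors that express Tagln give rise to cells of the nucleus pulposus (NP), the core of the disc. The labels list 4 samples per age, but 1 pooled count matrix was given per age and no key ties a barcode to its sample. With 1 library per age, a difference between ages cannot be told apart from one between libraries, and none was tested.

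Interferons are secreted proteins that signal through receptors and JAK kinases to transcription factors that switch on a shared set of antiviral genes. Many of these genes carry an interferon-stimulated response element in their promoter and are held at a low level without a stimulus. Class I molecules, a heavy chain paired with beta-2-microglobulin, show cytosolic peptides to T cells at the surface of almost every nucleated cell, and interferon raises their level and that of the machinery that cuts and transports the peptides. The NP of the adult disc has no blood vessels, and vessels and blood cells lie in the tissue around it.

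The P10 library held 7690 barcodes and 143203550 unique molecular identifiers (UMIs, counts of distinct RNA molecules), and the 8-week library 7597 barcodes and 115097999 UMIs. After filtering, 6999 and 6342 cells remained. They were clustered without any interferon or MHC gene among the variable genes, so the classes did not rest on the members, and were named from marker genes. NP-like cells numbered 313 at P10 and 2305 at 8 weeks, chondrocyte-like cells 4767 and 1459, hypertrophic chondrocyte-like cells 282 and 137, tendon fibroblast-like cells 878 and 766, and endothelial-like cells 119 and 127. The chondrocyte-like class lay in different clusters at the 2 ages (0, 2, 3, 5, 7 and 9 at P10 and 20, 24 and 27 at 8 weeks), tendon fibroblast-like cells in clusters 4 and 23, and NP-like cells mostly in cluster 17 at P10 and in clusters 15, 19 and 25 at 8 weeks. At 8 weeks, 3 clusters (653, 384 and 254 cells) stayed unnamed. The NP label was checked on markers: Car3 stood at 20709.5 and 18281 counts per 1000000 gene UMIs (CPM) in NP-like cells and at most 494 CPM in chondrocyte-like, hypertrophic and tendon fibroblast-like cells, and the notochord factor T at 1294 and 1479 CPM, while Noto was at 0 in NP-like cells. Of the other 9 NP markers, Foxa2 stood lower in NP-like (7.46 and 2.27 CPM) than in hypertrophic cells (84.7 and 140.0 CPM), and Slc2a1 at 8 weeks lower (398 CPM) than in chondrocyte-like cells (524 CPM). Doublet calling marked 0 cells at P10, so it has not worked there, and the libraries shared 12 barcode sequences. All levels below are CPM of summed UMIs, all ratios are log2 ratios of CPM, and all intervals are exact 95% intervals that cover counting error only.

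The promoters show which members carry the response element next to their start. RefSeq promoters (GRCm38.p6) were matched for 30 of the 35 members, and the 250 bases before the listed start were searched on both strands for the core of the element, taken as GAAA, any 2 bases and GAAA again. It was present in 13 of the 30 (43.3%), 2 of 9 antigen presentation members and 11 of 21 interferon members, against 821 of 27018 promoters of the same length (3.04%). The core of the gamma-activated site, TTCNNNGAA, was present in 6 of 30 (20%) against 7.18% of all promoters. The promoters of 5 members are printed 5′ to 3′ in the direction of their gene, with matches of the response element core or its reverse complement in capitals: Isg15, which holds 3 overlapping matches, Ifit3, which holds 2, B2m and Rsad2, which hold 1 each, and Irf7, the member with the highest ratio of NP-like cells over the other connective classes at P10 among those with enough UMIs, which holds none. They lie at chr4:156200819-156201068 (minus strand), chr19:34583279-34583528 (plus), chr2:122147437-122147685 (plus), chr12:26456453-26456702 (minus) and chr7:141266482-141266674 (minus), and bases that the annotation places inside the gene were left out.

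Isg15: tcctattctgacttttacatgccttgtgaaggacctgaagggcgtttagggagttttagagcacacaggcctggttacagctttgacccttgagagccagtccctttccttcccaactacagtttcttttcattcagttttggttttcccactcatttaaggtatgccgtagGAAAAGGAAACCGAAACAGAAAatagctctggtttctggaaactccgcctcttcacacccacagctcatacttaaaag
Ifit3: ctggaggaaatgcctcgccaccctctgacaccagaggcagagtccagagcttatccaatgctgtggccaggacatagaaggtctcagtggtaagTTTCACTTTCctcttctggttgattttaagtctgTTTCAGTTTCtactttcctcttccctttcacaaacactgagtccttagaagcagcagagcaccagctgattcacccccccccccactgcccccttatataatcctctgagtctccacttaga
B2m: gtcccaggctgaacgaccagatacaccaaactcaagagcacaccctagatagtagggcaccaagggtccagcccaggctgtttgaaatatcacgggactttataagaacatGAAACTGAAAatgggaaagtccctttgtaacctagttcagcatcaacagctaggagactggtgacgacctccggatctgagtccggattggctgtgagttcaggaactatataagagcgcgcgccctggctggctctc
Rsad2: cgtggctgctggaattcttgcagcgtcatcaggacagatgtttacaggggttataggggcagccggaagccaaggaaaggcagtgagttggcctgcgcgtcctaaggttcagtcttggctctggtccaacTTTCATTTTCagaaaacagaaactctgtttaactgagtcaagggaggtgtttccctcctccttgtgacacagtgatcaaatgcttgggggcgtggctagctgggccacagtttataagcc
Irf7: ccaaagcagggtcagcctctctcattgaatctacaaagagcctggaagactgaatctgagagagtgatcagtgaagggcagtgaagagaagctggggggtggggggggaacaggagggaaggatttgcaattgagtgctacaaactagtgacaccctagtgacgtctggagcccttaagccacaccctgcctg

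A match is a description of these letters and not a site of binding. The Gbp2 and H2-T23 windows held 1 match each, 59 and 124 bases before the listed start, at positions inside the annotated gene. The H2-K1 window held none. The windows of H2-D1, Tapbp, Psmb8, Psmb9 and Irf9 lie wholly inside their annotated genes. The counts above include such bases. Tap1 and Psmb9 start on opposite strands of chromosome 17 with 226 bases between their listed starts, and 9 of the 35 members lie on that chromosome, which holds the mouse MHC.

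**Figure D1:**
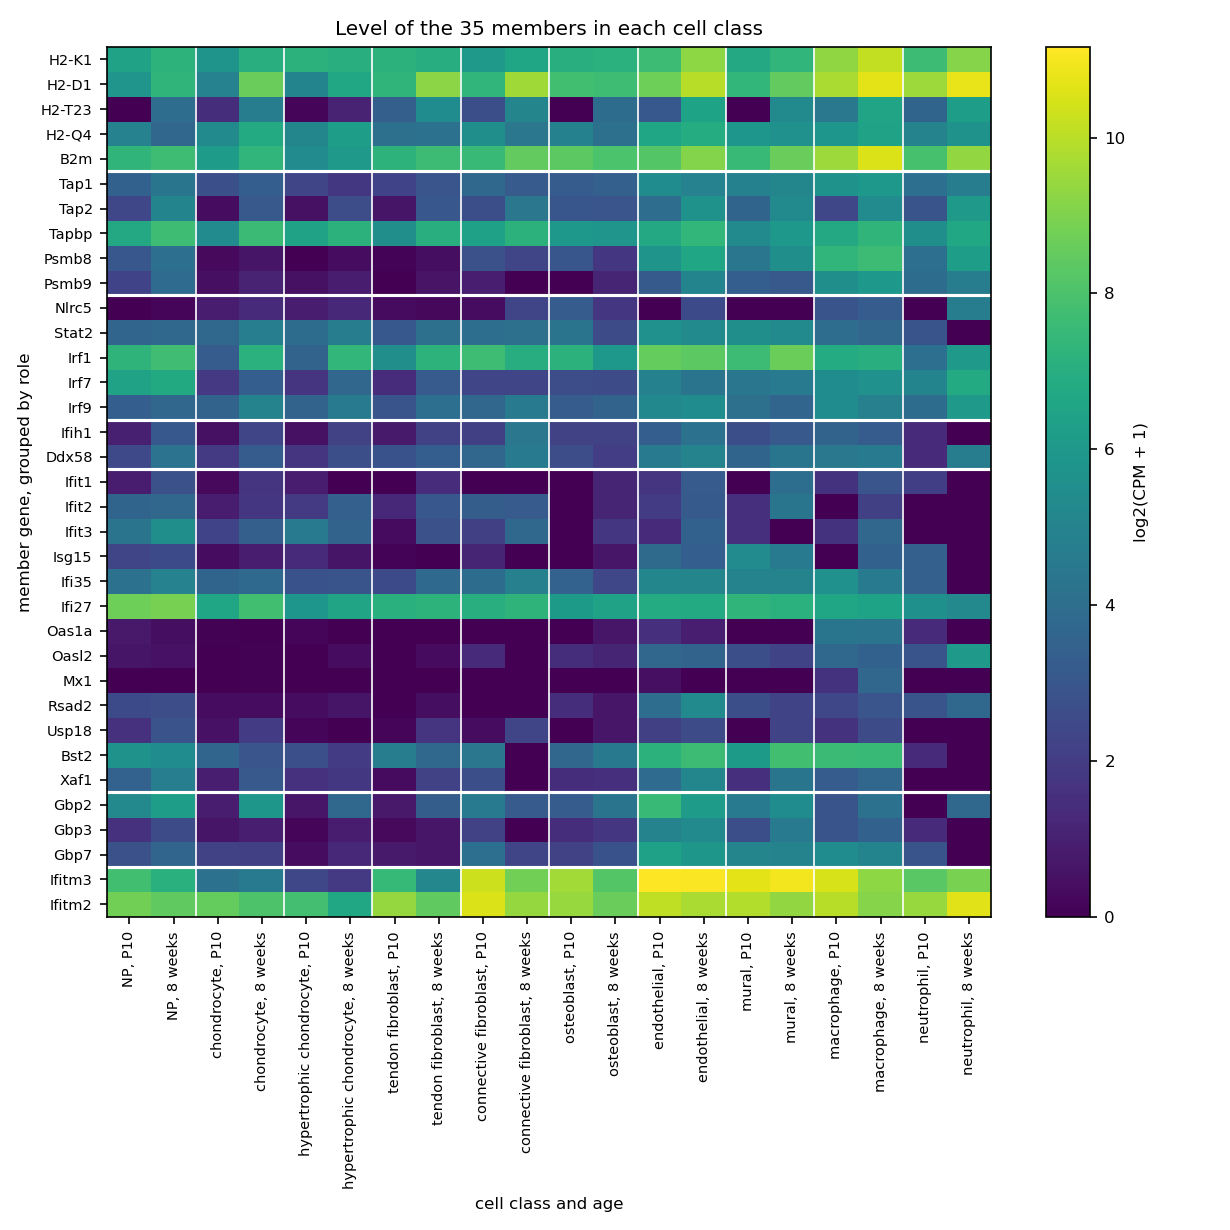
Level of each of the 35 members (rows, grouped by role) in 10 cell classes at P10 and 8 weeks (columns), as log2(CPM + 1) of summed UMIs, each column 1 class of 1 library. Irf7 and Ifi27 are bright in both NP columns against the chondrocyte, hypertrophic and tendon fibroblast columns, Ifitm3 is brightest in endothelial and mural cells, and Mx1, Oas1a and Oasl2 are dark in all connective classes.

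Blood and vessel cells carried the highest level of most members. The class with the highest level was macrophage-like for 15 members at P10 and 8 at 8 weeks, endothelial-like for 12 and 9, and NP-like for 3 and 5. Neutrophil-like cells (28 at 8 weeks) were highest for 1 and 7. For many members the intervals of the highest class and the next overlapped, among them Usp18 and Gbp2, highest in NP-like cells at 8 weeks. The 10 antigen presentation members summed to 462 CPM in NP-like cells at P10 and 825 CPM at 8 weeks, to 239 and 1028 CPM in chondrocyte-like cells, to 519.7 and 1117 CPM in tendon fibroblast-like cells, to 1229 and 2739 CPM in endothelial-like cells and to 2682 and 4986 CPM in macrophage-like cells. As whole classes, NP-like cells thus lay above chondrocyte-like cells at P10 and below them at 8 weeks. The 8-week order did not hold member by member in each chondrocyte-like cluster. In cluster 20, H2-D1 and H2-Q4 (218 and 162 CPM) lay above the NP-like level, and the other antigen presentation members lay below it. H2-D1 stood at 539 CPM in cluster 24. The 25 interferon members summed to 1505 and 1598 CPM in NP-like, 557 and 833 CPM in chondrocyte-like and 1084 and 790.4 CPM in tendon fibroblast-like cells. Ifi27, Ifitm2 and Ifitm3 made up much of that sum. Without these 3 genes NP-like cells held 430.2 and 642 CPM, against 72.9 and 326 CPM in chondrocyte-like, 101 and 258 CPM in tendon fibroblast-like and 1055 and 1001 CPM in endothelial-like cells.

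**Figure D2:**
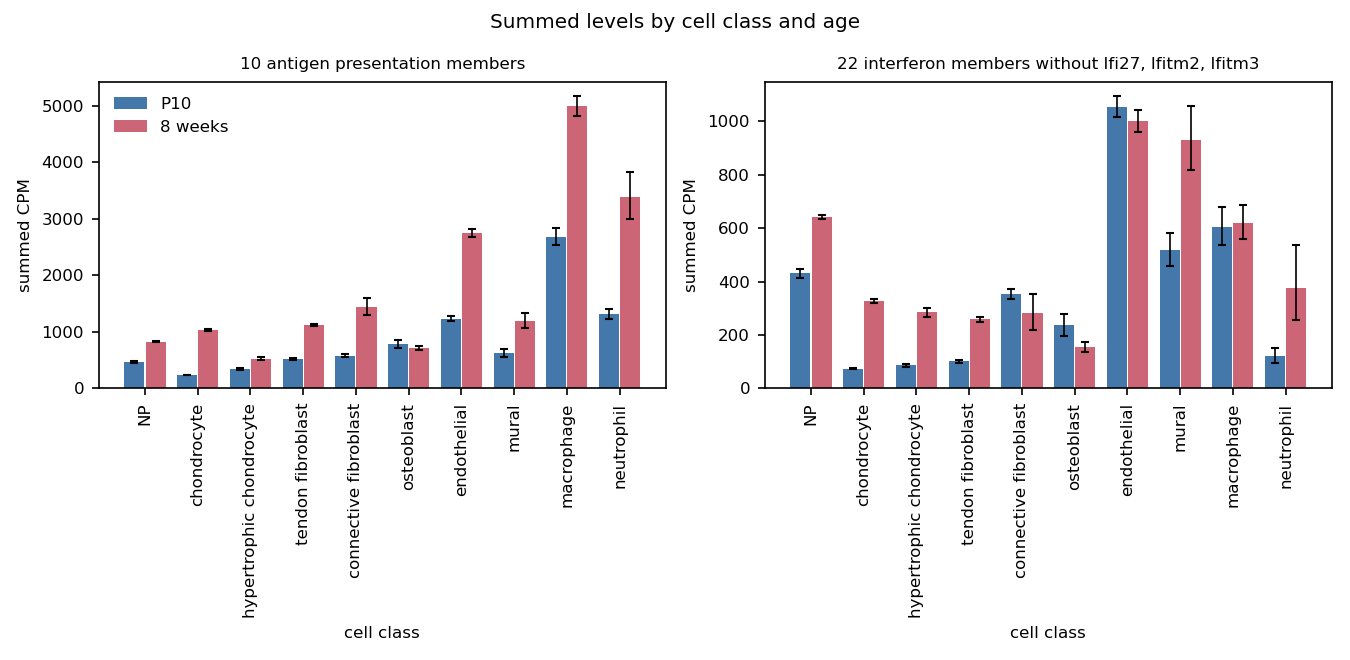
Summed CPM (bars start at 0, whiskers are exact 95% Poisson intervals) of the 10 antigen presentation members (left) and of the interferon members without Ifi27, Ifitm2 and Ifitm3 (right) in 10 cell classes at P10 and 8 weeks, 1 library per age. On the left the 8-week NP bar (825 CPM) lies above only the hypertrophic chondrocyte and osteoblast bars of that age, and on the right the NP bars lie above the chondrocyte, hypertrophic chondrocyte and tendon fibroblast bars of the same age.

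Blood and vessel markers were measured in the same NP-like cells. Macrophage-defining genes stood at or near 0: C1qa, Lyz2 and Cd74 were at most 0.0435% of their macrophage-like level, and Tyrobp and Fcer1g were at 0 at P10. The neutrophil genes S100a8 and S100a9 stood at most at 0.00553% of their neutrophil-like level. Of 10 macrophage markers, 4 (P10) and 10 (8 weeks) had a UMI in NP-like cells, with a sum of 16.6 and 28.5 CPM. Of 10 endothelial markers, 7 (Kdr, Tie1 and Tek at 0) and 10 had a UMI. Summed over them, NP-like cells held 12.8 and 29.1 CPM against 6099 and 7149 CPM in endothelial-like cells. Both sums were higher at 8 weeks. Mural markers, with 7 and 9 of 10 having a UMI, summed to 1697 and 757 CPM. Without the cells that held 3 or more blood or vessel marker UMIs, a comparison added after the data were seen, 14 members were at least 2-fold higher at 8 weeks in NP-like cells and 1 lower, as with all cells.

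Among the class I heavy chains, NP-like cells of 8 weeks held more H2-D1, H2-K1 and H2-T23 and less H2-Q4 than those of P10. H2-D1, a classical heavy chain, stood at 56.3 CPM (interval 50.9 to 62.2) at P10 and 155 CPM (interval 151 to 159) at 8 weeks, a log2 ratio of 1.46 (interval 1.31 to 1.61). H2-K1, the other classical heavy chain, stood at 86.6 CPM at P10 and 149.7 CPM at 8 weeks, with a ratio of 0.79 (interval 0.67 to 0.91) that stayed under 2-fold. H2-T23, which encodes the nonclassical molecule Qa-1, had 0 UMIs in the 313 NP-like cells of P10 and 657 UMIs at 8 weeks (14.9 CPM, interval 13.8 to 16.1). Against a floor of 3 UMIs over the P10 group this was at least 34.7-fold higher. The 0 of 313 cells allows, at 3 counts of the total, a share of cells with a UMI of up to 0.958% (exact upper limit 1.17%), and at 8 weeks the share was 20.6% (475 of 2305 cells, interval 19 to 22.3%). The gene was not missing from the P10 library, since tendon fibroblast-like cells held 9.26 CPM and chondrocyte-like cells 1.78 CPM there.

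H2-Q4, a class I gene of the Q region, was lower at 8 weeks over the whole class, at 30.1 CPM (interval 26.2 to 34.5) at P10 and 12 CPM (interval 11 to 13.1) at 8 weeks, a ratio of -1.32 (interval -1.55 to -1.08). Its neighbours H2-Q6 and H2-Q7, which are not members, were also lower in NP-like cells, with ratios of -1.32 (interval -1.84 to -0.78) and -1.48 (interval -1.91 to -1.05). Within the 8-week NP-like cells H2-Q4 stood at 46.5 CPM in cluster 8, whose leading genes are cell cycle genes, and at 6.07, 10.3 and 8.67 CPM in clusters 15, 19 and 25. In cluster 8, which held cells of both ages, it stood at 23.4 CPM at P10 (41 cells, interval 16.5 to 32.1) and 46.5 CPM at 8 weeks (123 cells, interval 39.9 to 54.0). Cluster 17 held 27.3 CPM (263 cells) and 24.2 CPM (49 cells, 5 UMIs, interval 7.86 to 56.5), an interval that includes the class level of 12 CPM. Clusters 15, 19 and 25 held 4, 5 and 0 cells of P10, so cluster and age cannot be told apart in them. B2m, the light chain shared by all class I molecules, stood at 159 CPM at P10 and 207 CPM at 8 weeks, a ratio of 0.38 (interval 0.29 to 0.47). Genes of the H2 family are similar in sequence, and how reads shared between copies were assigned is not given in the sources used here, so single H2 genes are uncertain, as are the Ifit, Gbp, Oas and Ifitm families. Tapbp, Irf9, Gbp7, Ifitm2 and Nlrc5 overlap another gene on the same strand, where reads can be shared or dropped.

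All 5 genes of peptide supply and loading were higher at 8 weeks in NP-like cells, 3 of them by 2-fold or more, in a contrast in which 15.3% of all genes were that much higher and the median gene had a ratio of 0.36. Tap2, a subunit of the peptide transporter, stood at 4.16 CPM (interval 2.78 to 5.97) at P10 and 31.8 CPM (interval 30.1 to 33.5) at 8 weeks, a ratio of 2.93 (interval 2.41 to 3.52). Its partner Tap1 had a ratio of 0.92 (interval 0.56 to 1.29) and Tapbp (tapasin, which holds class I at the transporter) one of 0.97 (interval 0.86 to 1.08). Psmb9 and Psmb8, the catalytic subunits that turn the proteasome into the immunoproteasome, had ratios of 1.91 (interval 1.34 to 2.53) and 1.13 (interval 0.71 to 1.57). The constitutive subunits they replace, Psmb6 and Psmb5, had ratios of -0.19 and -0.22, so they did not share the direction. Psmb8 was nearly absent from chondrocyte-like cells, at 0.208 and 0.566 CPM, and from tendon fibroblast-like cells, at 0.0681 and 0.348 CPM, while NP-like cells held 7.17 and 15.7 CPM and macrophage-like cells 161 and 197 CPM.

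All 4 transcription factors that passed stayed under 2-fold between ages in NP-like cells. Irf7, the factor that amplifies type I interferon production (Ensembl ENSMUSG00000025498, chromosome 7), stood at 84 CPM (interval 77.3 to 91.1) at P10 and 107 CPM (interval 104 to 111) at 8 weeks, a ratio of 0.36 (interval 0.23 to 0.48). The 8-week level averaged 261 CPM in cluster 15, which held 4 cells of P10, and 59.1 CPM in the other NP-like cells, below the P10 level. Irf1, an activator of class I and interferon genes, had a ratio of 0.47 (interval 0.38 to 0.56). Stat2 and Irf9, parts of the main transcription complex of type I interferon, had ratios of 0.11 (interval -0.24 to 0.46) and 0.41 (interval 0.03 to 0.81). Nlrc5, the class I transactivator, had 0 UMIs at P10 and 6 at 8 weeks, too few for a ratio. The median ratio over all genes that passed a minimum of 100 UMIs over both ages together was 0.36, so the ratios of Irf1, Irf7 and Irf9 lay close to that of the median gene.

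The RNA sensors and several effectors were higher at 8 weeks. Ifih1 (MDA5), a sensor of long double-stranded RNA, stood at 1.0 CPM at P10 and 7.3 CPM at 8 weeks (7 and 321 UMIs), a ratio of 2.86 (interval 1.80 to 4.19), and Ddx58 (RIG-I) at 4.44 CPM at P10 and 17.9 CPM at 8 weeks, a ratio of 2.01 (interval 1.5 to 2.58). Ifit1 and Ifit3, which bind foreign RNA or partner with proteins that do, had ratios of 2.74 (interval 1.60 to 4.20) and 1.30 (interval 1.05 to 1.57). Usp18, which removes ISG15 from proteins and damps the interferon receptor, had a ratio of 1.65 (interval 0.88 to 2.54), and Xaf1 one of 1.38 (interval 1.03 to 1.74). The other effectors stayed between -1 and 1: Ifi35 at 0.80, Isg15 at 0.23, Ifi27 at 0.18, Rsad2 (viperin) at 0.16, Ifit2 at 0.12 and Bst2 (tetherin) at -0.27. Mx1 had 0 UMIs in NP-like cells of both ages, and Oas1a and Oasl2 did not pass the minimum (5 and 14 UMIs, and 4 and 20). Ifit1 rested on 6 UMIs at P10 and Usp18 on 14.

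The guanylate-binding proteins, GTPases that attack the membranes of intracellular pathogens, had ratios of 1.00 (interval 0.82 to 1.19) for Gbp2, 1.28 (interval 0.50 to 2.17) for Gbp3 and 1.01 (interval 0.54 to 1.51) for Gbp7. At 8 weeks Gbp2 stood at 192 CPM in cluster 15 and at 37.3 CPM in the other NP-like cells, against 37.1 CPM in NP-like cells of P10. Cluster 15 held 4 cells of P10, so cluster and age cannot be told apart for this gene. Ifitm3 and Ifitm2, membrane proteins that block viral entry, were lower at 8 weeks by less than 2-fold, with ratios of -0.68 (interval -0.76 to -0.60) and -0.34 (interval -0.39 to -0.28).

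Of the 31 members that passed the minimum in NP-like cells, a minimum that a gene can reach through 1 age alone, 14 were at least 2-fold higher at 8 weeks and 1, H2-Q4, at least 2-fold lower. Among all genes tested in that contrast, 15.3% were at least 2-fold higher and 2.9% at least 2-fold lower. The median ratio was 1.05 (order-statistic interval over genes, 0.38 to 2.93) over the 10 antigen presentation members, with H2-T23 at its bound, and 0.47 (interval 0.16 to 1.30) over the 21 interferon members that passed. Relative to the median gene, 9 members were at least 2-fold higher and 2 at least 2-fold lower, and under that scaling Irf7, Ifi27, Ifit2, Isg15, Rsad2 and Stat2 had negative ratios. The 4 members that did not pass were Nlrc5, Oas1a, Oasl2 and Mx1.

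**Figure D3:**
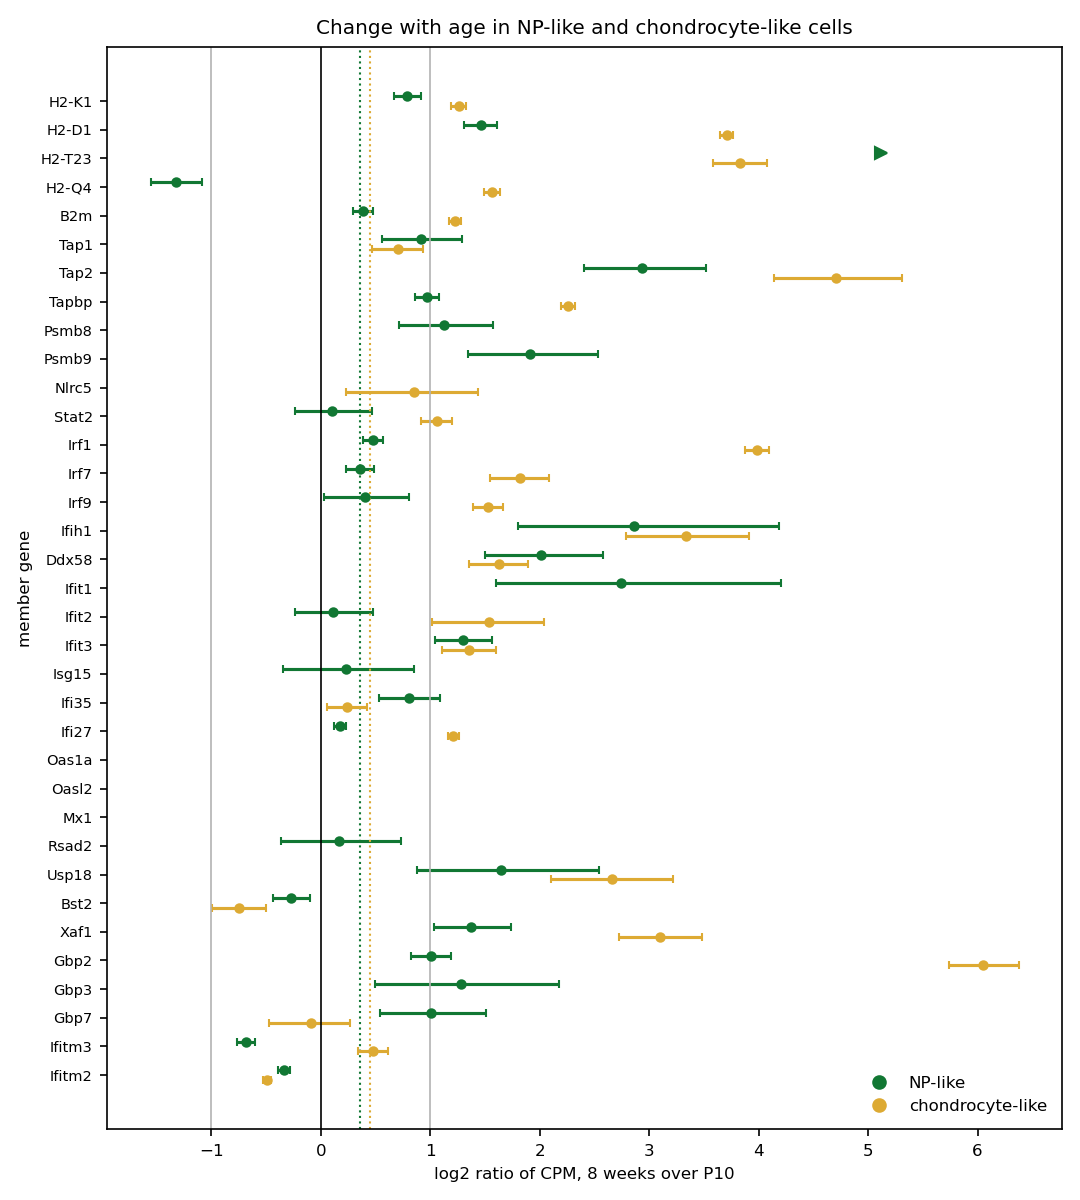
Log2 ratio of CPM, 8 weeks over P10 (horizontal axis), of each member (vertical axis) in NP-like and chondrocyte-like cells. Points are ratios with exact 95% intervals for counting error, the triangle is the lower bound of H2-T23 in NP-like cells, dotted lines are the median gene of each class, grey lines mark 2-fold, and members without a point did not pass the minimum. H2-Q4 lies on opposite sides of 0 in the 2 classes, and Gbp2 and Irf1 lie near 6.05 and 3.99 in chondrocyte-like cells, against 1.00 and 0.47 in NP-like cells.

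Chondrocyte-like cells held low levels at P10 and larger differences between ages. Of 26 members that passed, 19 were at least 2-fold higher at 8 weeks, against 26.9% of all genes, and 0 at least 2-fold lower, against 6.48%. The median ratios were 1.91 over 8 antigen presentation members and 1.44 over 18 interferon members, beside 0.45 for the median gene. All 5 class I chains were past 2-fold. H2-D1 stood at 29.6 CPM (interval 28.6 to 30.7) at P10 and 387 CPM (interval 379 to 396) at 8 weeks, a ratio of 3.71 (interval 3.65 to 3.77), H2-T23 had a ratio of 3.83 (interval 3.59 to 4.08) and H2-Q4 one of 1.56 (interval 1.49 to 1.64). Irf1 stood at 8.64 CPM at P10 and 137 CPM at 8 weeks, a ratio of 3.99 (interval 3.88 to 4.10), and Tap2 had a ratio of 4.70 (interval 4.14 to 5.31).

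Gbp2 was the member with the greatest ratio in chondrocyte-like cells, at 0.882 CPM (interval 0.708 to 1.09) at P10 and 58.4 CPM (interval 55.3 to 61.6) at 8 weeks, a ratio of 6.05 (interval 5.74 to 6.37). It was unequal between the 8-week clusters, at 95.1 CPM in cluster 24 and 14.6 CPM in cluster 20, and H2-D1 stood at 539 and 218 CPM and H2-T23 at 45.0 and 1.51 CPM in the same clusters. The 8-week level of this class is therefore an average over clusters that differ. Unnamed clusters 21, 22 and 26 held chondrocyte markers too but had leading genes of osteoblasts or hypertrophic chondrocytes, and are not in this class. They held 0 cells of P10, and at 8 weeks Gbp2 stood at 3.87, 3.21 and 70.1 CPM and H2-Q4 at 196, 13.6 and 50.8 CPM in them, for H2-Q4 in cluster 22 below the P10 chondrocyte-like level. Cells with a Gbp2 UMI made up 1.24% (59 of 4767 cells, interval 0.943 to 1.59%) of chondrocyte-like cells at P10 and 27.1% (395 of 1459 cells, interval 24.8 to 29.4%) at 8 weeks, and after thinning each cell to 2000 UMIs 0.0631% (3 of 4751 cells, interval 0.013 to 0.184%) and 9.52% (138 of 1449 cells, interval 8.06 to 11.2%). Beside these values, summed macrophage markers stood at 6.8 CPM at P10 (9 of 10 with a UMI) and 13.8 CPM at 8 weeks (8 of 10), and 10 of 10 endothelial markers summed to 10.4 and 11.8 CPM. Members below or near 0 were Ifitm2 (-0.49), Bst2 (-0.74) and Gbp7 (-0.09).

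In hypertrophic chondrocyte-like cells 11 members passed, of which 4 were at least 2-fold higher at 8 weeks and 2 at least 2-fold lower, against 16% and 9.05% of all genes. The higher ones were Irf1 (3.96, interval 3.66 to 4.27), H2-D1 (1.67, interval 1.45 to 1.89), H2-Q4 (1.18, interval 0.94 to 1.41) and Irf9 (1.05, interval 0.62 to 1.48), and the lower ones Ifit3 (-1.18, interval -1.71 to -0.69) and Ifitm2 (-1.18, interval -1.34 to -1.02). NP genes differed too: Car3 stood at 9.92 CPM at P10 and 494 CPM at 8 weeks, 2.7% of the NP-like level, and the part of this in the ratios was not tested. In tendon fibroblast-like cells 19 members passed, 10 at least 2-fold higher and 2 at least 2-fold lower, against 14.3% and 6.52%. H2-D1 stood at 155 CPM at P10 and 590.1 CPM at 8 weeks (1.93, interval 1.86 to 1.99), while H2-K1 stood at 142 CPM at P10 and 124 CPM at 8 weeks (-0.19, interval -0.29 to -0.09), so the 2 classical heavy chains had opposite signs there. Gbp2, Ifit2, Irf7 and H2-T23 had ratios of 3.71, 2.41, 2.33 and 2.17, and Ifitm3 was lower, at 177 CPM at P10 and 35.3 CPM at 8 weeks (-2.32, interval -2.48 to -2.17), as was Bst2 (-1.0, interval -1.29 to -0.72). The median over the tendon fibroblast interferon members was 1.22 and turned to -0.60 when each cell was thinned to 2000 UMIs.

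In endothelial-like cells 24 members passed, 6 at least 2-fold higher and 1 at least 2-fold lower at 8 weeks, against 6.8% and 2.8% of all genes. The higher ones were H2-T23 (3.56, interval 2.90 to 4.31), Tap2 (1.75, interval 1.22 to 2.31), H2-K1 (1.65, interval 1.5 to 1.80), Rsad2 (1.36, interval 0.80 to 1.94), Xaf1 (1.29, interval 0.70 to 1.90) and H2-D1 (1.28, interval 1.18 to 1.39). Gbp2 was the lower one, at 185 CPM (interval 169 to 202) at P10 and 69.1 CPM (interval 58.5 to 81.1) at 8 weeks, a ratio of -1.42 (interval -1.69 to -1.15). The median was 0.88 over 9 antigen presentation members and -0.06 over 15 interferon members. H2-D1 was at least 2-fold higher at 8 weeks in each of the 5 classes contrasted, and H2-T23 in each of the 4 classes in which it passed. For H2-T23 in chondrocyte-like cells this did not hold in each 8-week cluster. It stood at 45.0 CPM in cluster 24 and at 1.51 CPM in cluster 20, whose interval (0.80 to 2.58) included the P10 class level. The difference between ages is also a difference between 2 libraries, and its part in these shared ratios cannot be told apart.

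NP-like cells were next set against the other connective classes of the same library (chondrocyte-like, hypertrophic chondrocyte-like, tendon fibroblast-like, connective fibroblast-like and osteoblast-like cells summed), a comparison in which both sides shared 1 library. At P10, 23 members passed, of which 10 were at least 2-fold higher in NP-like cells and 1, H2-T23, lower, against 18.5% and 16.4% of all genes. At 8 weeks 31 passed, of which 19 were at least 2-fold higher and 3 lower, against 19.1% and 14.7%. The interferon members had median ratios of 1.80 (16 passed) and 1.42 (21 passed), and the 5 class I chains of 0.23 and -0.88, beside 0.19 and 0.31 for the median gene. All 10 antiviral effectors that passed at 8 weeks were higher in NP-like cells by 2-fold or more, and 0 of the 5 class I chains were. The sum of the other connective classes leaves out unnamed clusters 21, 22 and 26. In clusters 21 and 22 all 10 effectors stood below the NP-like level. Cluster 26 held more Ifit1 (18.2 CPM) and Usp18 (14.7 CPM) than NP-like cells (5.75 and 6.30 CPM). Its Isg15 interval (3.24 to 8.41 CPM) included the NP-like level of 4.71 CPM, and the other effectors stood lower than in NP-like cells.

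Irf7 had the highest ratio of NP-like cells over the other connective classes at P10 among the 23 members that passed there. It stood at 84 and 107 CPM in NP-like cells, at 2.57 and 9.05 CPM in chondrocyte-like, 2.28 and 11.8 CPM in hypertrophic, 1.63 and 8.19 CPM in tendon fibroblast-like and 28.6 and 18.9 CPM in endothelial-like cells. The ratios over the other connective classes were 5.08 (interval 4.88 to 5.28) at P10 and 3.60 (interval 3.45 to 3.76) at 8 weeks. At P10 the next class was macrophage-like (42.4 CPM, interval 25.9 to 65.5), and at 8 weeks neutrophil-like cells (113 CPM, interval 51.6 to 214, 9 UMIs in 28 cells) overlapped NP-like cells within their interval. Cells with an Irf7 UMI made up 52.4% (164 of 313 cells, interval 46.7 to 58.0%) of NP-like cells at P10 and 49.5% (1142 of 2305 cells, interval 47.5 to 51.6%) at 8 weeks, at median depths of 17677 and 15460 UMIs, against 4.53% (216 of 4767 cells, interval 3.96 to 5.16%) and 12.1% (176 of 1459 cells, interval 10.4 to 13.8%) of chondrocyte-like cells at 19441 and 13552 UMIs. Thinned to 2000 UMIs per cell the shares were 17.8% and 18.5% of NP-like cells and 0.589% and 1.93% of chondrocyte-like cells, with 9 and 97 NP-like and 16 and 10 chondrocyte-like cells left out as shallower.

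As a share of its NP-like level, Irf7 stood higher in the other classes than the NP-defining genes Car3 and Krt19 did. In chondrocyte-like cells Irf7 stood at 3.06% and 8.42% of the NP-like level, while Car3 stood at 0.0694% and 0.426% and Krt19 at 0.090% and 0.682%. In endothelial-like cells Irf7 stood at 34.0% and 17.6% and Car3 at 3.55% and 3.38%.

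**Figure D4:**
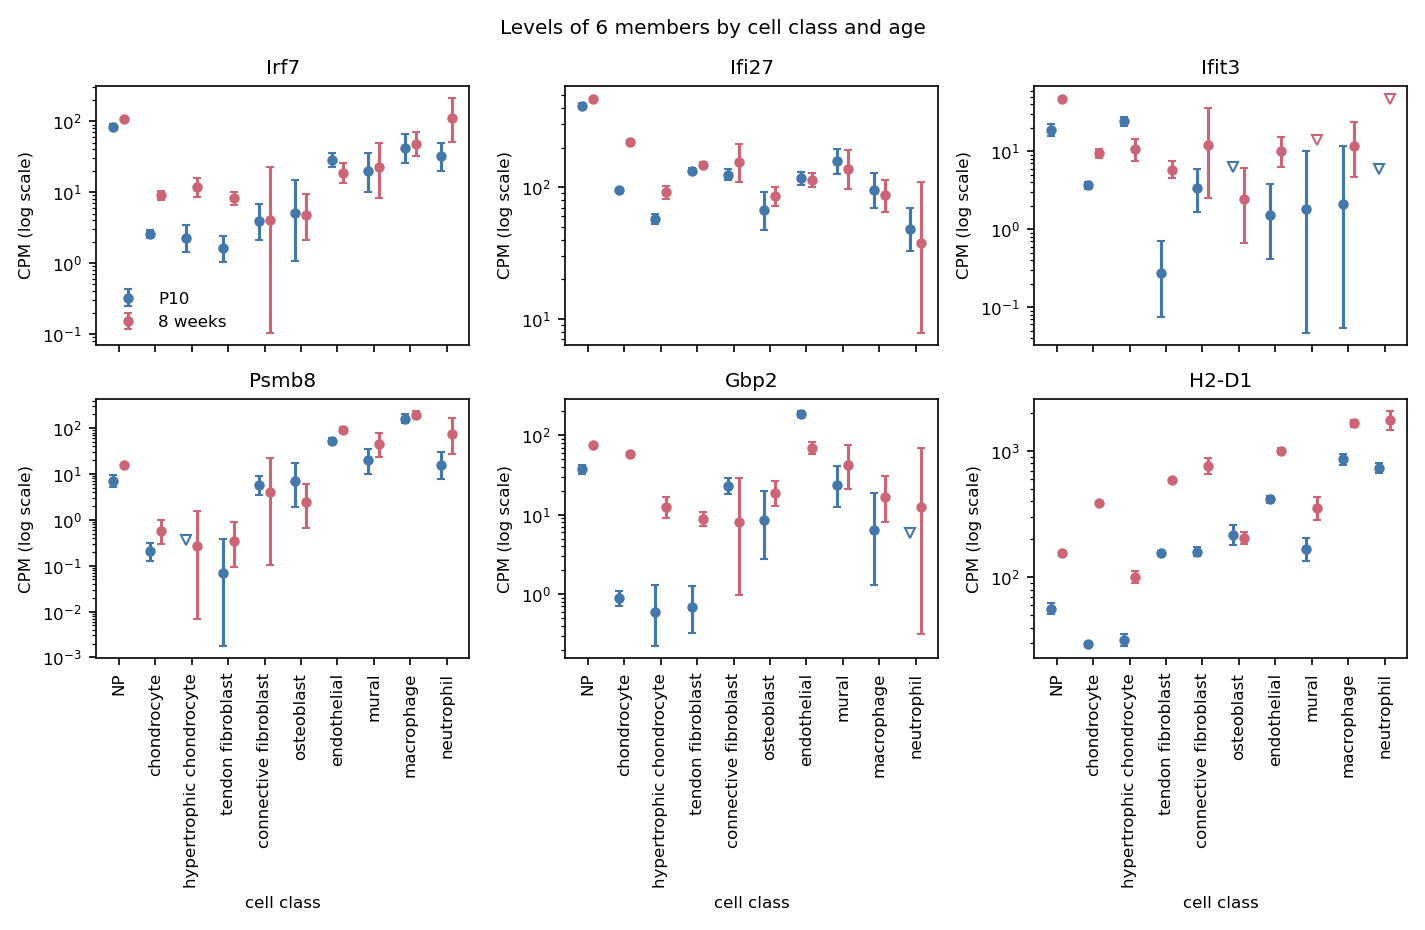
CPM (log axis) of Irf7, Ifi27, Ifit3, Psmb8, Gbp2 and H2-D1 in 10 cell classes at P10 and 8 weeks, 1 library per age. Points are CPM of summed UMIs with exact 95% Poisson intervals, and open triangles are the upper limits where a class held 0 UMIs. Irf7 and Ifi27 are highest or level with the highest class in NP-like cells, Psmb8 is 7.17 and 15.7 CPM in NP-like cells and under 1 CPM in chondrocyte, hypertrophic and tendon fibroblast cells, and H2-D1 is higher in chondrocyte and tendon fibroblast cells than in NP-like cells at 8 weeks.

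Other members also had high ratios over the summed connective classes, but not the place of Irf7 among all 10 classes. For Psmb8, Psmb9, Rsad2, Isg15 and Gbp3, NP-like cells ranked 4 or 5 of 10 at each age. At 8 weeks members with high ratios of NP-like cells over the other connective classes were Psmb8 (4.77, interval 4.17 to 5.44), Psmb9 (3.96, interval 3.47 to 4.48), Rsad2 (3.92, interval 3.14 to 4.81), Isg15, a ubiquitin-like modifier (3.1, interval 2.46 to 3.80), Ifit3 (2.50, interval 2.33 to 2.67) and Gbp3 (2.48, interval 1.95 to 3.03). Psmb8, Psmb9 and Rsad2 thus lay above Irf7, at 3.60, and Isg15 and Rsad2 rested on 22 and 14 UMIs in the other classes. Ifi27 was highest of all 10 classes in NP-like cells at both ages, at 418 and 472 CPM, followed by mural-like cells at P10 (157 CPM, interval 126 to 194) and chondrocyte-like cells at 8 weeks (219.9 CPM, interval 214 to 226). The members lower in NP-like cells at 8 weeks were H2-Q4 (-2.68, interval -2.81 to -2.55), H2-D1 (-1.42, interval -1.46 to -1.38) and Irf9 (-1.06, interval -1.21 to -0.90). Gbp2 and Irf1 had higher ratios over the summed other connective classes at P10 (4.70 and 3.05) than at 8 weeks (0.97 and 0.61). For Irf1 at P10 this did not hold for each class in the sum. Connective fibroblast-like cells held 207 CPM of Irf1 there and lay above NP-like cells, which ranked 4 of 10 classes.

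Within the NP-like cells of 8 weeks, Irf7 and Gbp2 were concentrated in cluster 15 (927 cells), whose leading genes include Inmt, Wnt16 and Irf7 itself. Irf7 stood at 261 CPM there, and at 76.8, 36.7 and 30.1 CPM in clusters 19, 25 and 8. Gbp2 stood at 192 CPM, and at 44.1, 25.4 and 33.6 CPM. In the small cluster 17 (49 cells, 13 UMIs each) both stood at 62.9 CPM. Against all other NP-like cells the ratios were 2.14 (interval 2.06 to 2.23) for Irf7, 2.37 (interval 2.26 to 2.47) for Gbp2 and 1.68 (interval 1.30 to 2.06) for Rsad2, and these were the 3 members at least 2-fold higher of 31 that passed, against 2.12% of all genes. Usp18 (-1.32, interval -1.91 to -0.78) and H2-Q4 (-1.20, interval -1.60 to -0.82) were at least 2-fold lower, against 8.11%. The other 26 members stayed between, among them Isg15 at 2.94 CPM in cluster 15 and 4.75, 6.26 and 5.11 CPM in clusters 19, 25 and 8, and Ifit3 at 41.2 CPM against 51.4, 50.7 and 28.0 CPM. High Irf7 in cluster 15 thus stood beside levels within 2-fold of the other NP-like cells for most interferon members. Ifi44, an interferon-stimulated gene that is no member and was chosen after its values were seen, stood at 37.3 CPM in cluster 15 and at 5.48, 7.42 and 3.5 CPM in clusters 19, 25 and 8. No interferon or MHC gene entered the clustering, but the cluster was chosen after its Irf7 level was seen.

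Cluster 15 was also shallower, with a median of 9839 UMIs per cell against 20012.5 UMIs in the other NP-like cells. Over cells of 5000 to 20000 UMIs, a comparison added after the data were seen, 581 and 584 cells with medians of 11767 and 14768 UMIs gave ratios of 1.81 for Irf7, 2.21 for Gbp2, 0.94 for Rsad2, -1.61 for Usp18 and -0.91 for H2-Q4. With each cell thinned to 2000 UMIs the ratios were 2.27 for Irf7, 2.63 for Gbp2, 1.45 for Rsad2 (16 and 9 UMIs), -0.31 for H2-Q4 and 0.14 for Usp18 (5 and 7 UMIs, interval -1.86 to 2.01). Irf7 and Gbp2 were past 2-fold in all 3 comparisons, while Rsad2, H2-Q4 and Usp18 each missed 2-fold in at least 1 of them.

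**Figure D5:**
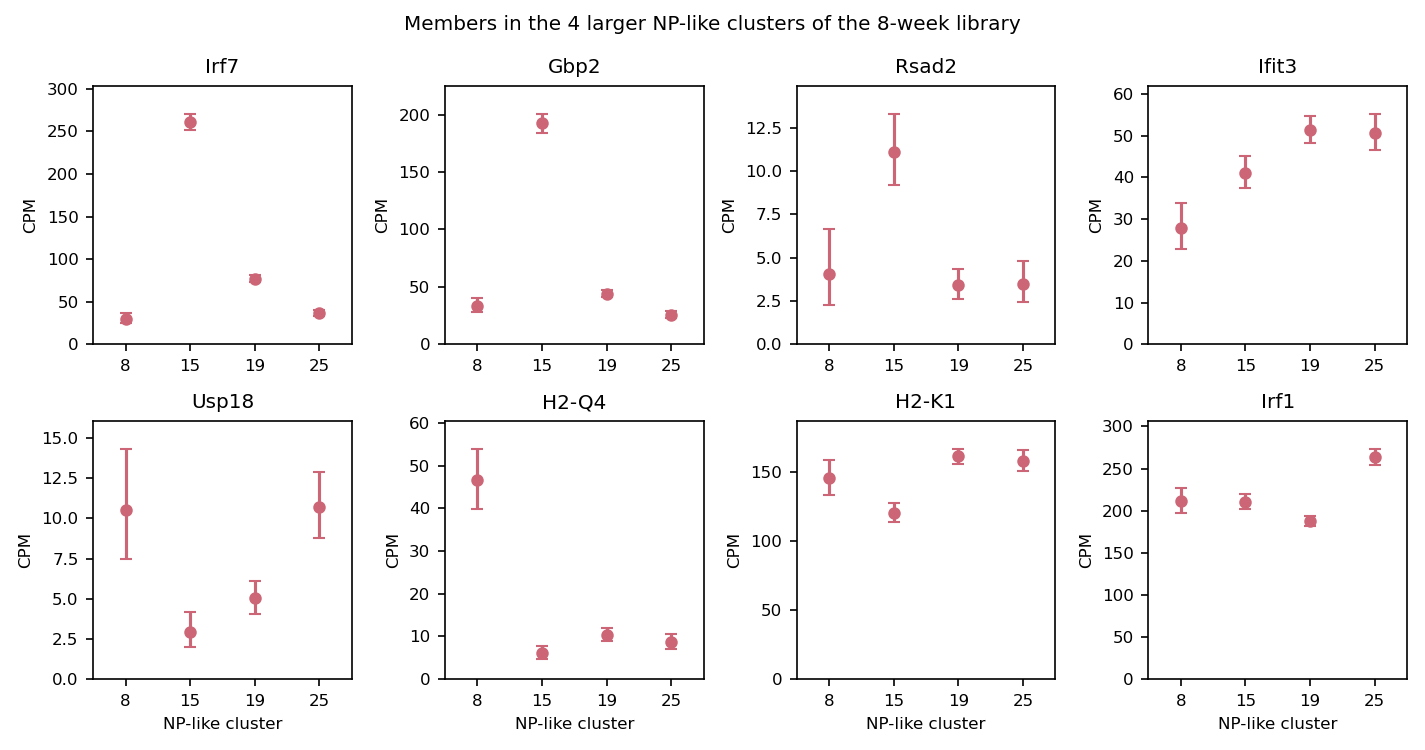
CPM (axes start at 0) of 8 members in NP-like clusters 8, 15, 19 and 25 of the 8-week library (cluster 17, of 49 cells, is not drawn), with exact 95% Poisson intervals. Irf7 and Gbp2 peak in cluster 15 (261 and 192 CPM), H2-Q4 in cluster 8 (46.5 CPM), and H2-K1 and Irf1 range from 121 to 161 and from 188 to 264 CPM.

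Across the 2305 NP-like cells of 8 weeks, a description with no test because the cells share 1 library, the member whose log level varied most like Irf7 was Gbp2 (Pearson r 0.29). The other members with at least 200 UMIs had r between -0.17 (Ifitm2) and 0.07 (Rsad2). Outside the lists the genes most like Irf7 among 9787 were Emp1 (0.33), Plet1 (0.29), Baiap2 (0.29) and Jund (0.29), and Irf7 had r -0.17 with the log of UMIs per cell. For the summed interferon members the 10 most alike genes were H3f3a, Ubb, Tspo, Btf3, Tpt1, Ppia, H3f3b, Eif1, Reep5 and S100a11, with r between 0.20 and 0.22, which in sparse counts is no finding. The 5% of NP-like cells with the highest interferon share held 9.72% of the interferon UMIs at P10 and 7.33% at 8 weeks. The same cells held 4.28% and 3.29% of all gene UMIs of the class. An excess over that share follows from ranking cells by it, and no reference for counting error was made. The corresponding interferon share was 16.2% in hypertrophic (7 top cells) and 10.6% in chondrocyte-like cells (73 top cells) of 8 weeks.

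WPRE4, an exogenous sequence that the authors counted beside the genes, served as a readout of the reporter, and NP-like cells with at least 10 WPRE4 UMIs (208 of 313 at P10 and 1290 of 2305 at 8 weeks) were set against the rest. No member was 2-fold higher or lower in either library. At P10, 0 of 14 members that passed were past 2-fold, against 0.393% of all genes higher and 0.131% lower, and at 8 weeks 0 of 31, against 0.117% and 0.792%. Summed over members at 8 weeks, the ratio was -0.24 (interval -0.27 to -0.21) for antigen presentation and 0.01 (interval -0.01 to 0.03) for interferon members. The medians over members were -0.40 (interval -0.64 to -0.11) and -0.16 (interval -0.39 to 0.001), beside -0.04 for the median gene. Of the 31 members, 6 lay above 0. The limit of 10 WPRE4 UMIs was a fixed number, whatever the depth of the cell.

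The genes around the members give the setting. Of 17 interferon ligands, 0 passed the minimum in any contrast of ages, and Ifnb1 was at 0 UMIs in NP-like cells of both ages. Among the 14 receptor and signalling genes that passed, 0 were at least 2-fold lower at 8 weeks in NP-like cells, beside 2.9% of all genes. The receptor Ifnlr1 and the kinase Tyk2 were among those at least 2-fold higher, beside 15.3% of all genes. Their ratios were 2.18 (interval 0.78 to 4.08) and 1.28 (interval 0.75 to 1.85). Relative to the median gene, 1 gene of this list was higher and 1 lower. Of the others, Socs1, a feedback inhibitor, Jak1 and Irf3 had ratios of 0.78, 0.14 and 0.90. The receptors Ifnar1 and Ifngr1 stood at 10.6 and 16.8 CPM and at 25.2 and 27.8 CPM. Socs3, another feedback inhibitor, had a ratio of -0.71 (interval -0.80 to -0.62) in NP-like cells and 2.32 (interval 2.28 to 2.35) in chondrocyte-like cells. Of 9 sensing genes, 5 passed and 3 were at least 2-fold higher, beside 15.3% of all genes (1 of the 5 relative to the median gene), Tlr3 (2.50, interval 1.56 to 3.65), Tbk1 (1.07, interval 0.74 to 1.43) and Zbp1 (1.06, interval 0.08 to 2.22), and Myd88 and Mavs, adaptors of Toll-like receptors and of the RNA sensors, had ratios of -0.00 and 0.34. The DNA-sensing adaptor Tmem173 (STING) stood at 5.3 and 1.32 CPM in NP-like and 27.2 and 4.74 CPM in chondrocyte-like cells.

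Of 37 further interferon-stimulated genes, 20 passed in NP-like cells, 9 at least 2-fold higher and 1, Ifitm10, lower, beside 15.3% and 2.9% of all genes. Relative to the median gene these were 5 and 2. The list had a median of 0.90. Lgals3bp, Ly6a, Eif2ak2 and Ifi27l2a had the most UMIs, with ratios of 0.41, 1.54, 0.58 and 0.16. The immunity-related GTPase Iigp1 had 0 UMIs in NP-like cells of both ages and stood at 282 and 147 CPM in endothelial-like cells. Of 19 further class I presentation genes, 13 passed, 3 at least 2-fold higher (H2-M3 2.18, Tapbpl 1.36 and Erap1 1.20) and 2 lower (H2-Q7 and H2-Q6, above). Beside 15.3% and 2.9% of all genes the share higher was near the background, and relative to the median gene 1 was higher and 3 lower. The chaperones Calr, Canx and Pdia3 had ratios of -0.94, 0.26 and -0.05 and the proteasome activator Psme2 one of 0.20. Among class II genes, H2-Ab1 stood at 31.5 and 45.1 CPM in NP-like cells, whereas its partner chain H2-Aa stood at 0.43 and 0.0682 CPM and the invariant chain Cd74 at 0.717 and 0.25 CPM. H2-DMb1 and H2-DMa, which load class II, had NP ratios of 0.72 and 0.19. In macrophage-like cells H2-Ab1, H2-Aa and Cd74 stood at 466, 471 and 1647 CPM at P10. In chondrocyte-like cells 6 of 6 class II genes that passed were at least 2-fold lower at 8 weeks, against 6.48% of all genes. Their median ratio was -1.86, opposite in sign to the class I chains of the same cells.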

How the data were processed

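Droplet single-cell RNA sequencing was done on disc cells of 8 samples, 4 per age. The deposited matrices hold UMI counts per gene and barcode, made with Cell Ranger 3.1.0 per the file headers, with mm10 and Seurat 3 named in the submitters' processing notes. Each age is 1 matrix that pools its 4 samples. Counts of exogenous sequences (WPRE4) came in separate deposited count matrices.

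Cells with at least 500 genes and 1000 UMIs and at most 15% mitochondrial UMIs were kept, with median depths of 18300 UMIs at P10 and 14683.5 at 8 weeks. Scrublet (expected rate 6%) removed 139 cells at 8 weeks (2.14%) and marked 0 at P10. Cells were clustered in Scanpy 1.11.5 (2000 variable genes without interferon or MHC genes, 30 components, 15 neighbours, Leiden resolution 1, 28 clusters). A cluster was named from at least 3 markers of a list, each 2-fold higher than elsewhere and in 25% of its cells (chondrocytes: 8 markers in 50%), unless its 10 leading genes went against the name.

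UMIs were summed per class and age and given as CPM with exact 95% Poisson intervals. Log2 ratios had conditional binomial intervals and shares Clopper-Pearson intervals. Genes with at least 100 UMIs over both sides were compared, and a ratio past 2-fold was counted. The ratio code was tested on simulated data. Named were the members with at least 100 UMIs in NP-like cells, in other classes those with the bounds furthest from 0, and of other lists those with the most UMIs. The genes of cluster 15 and others named beside a count were chosen after their values were seen. The members and lists were chosen with earlier results of these data known. Alternatives covered thinning to 2000 UMIs, scaling to the median gene, doublet, mitochondrial and UMI limits, cluster resolution, clustering genes and each library clustered alone. Blood and vessel marker exclusion, which did not act on the full mural list, and matched depth were added after the data were seen. Promoters came from RefSeq (GRCm38.p6), with 30 of 35 members matched. A gene of the receptor and signalling list is not reported here.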

Additional observations from a re-analysis of the deposited data

Results flagged for a closer look

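The direction of the difference between ages was not the same in every class for H2-Q4 and Gbp2. H2-Q4 had a log2 ratio of 8 weeks over P10 of 1.56 in chondrocyte-like cells and -1.32 in NP-like cells. The NP-like cells of the 2 ages lay mostly in different clusters, and in cluster 8, which held 41 and 123 of them, H2-Q4 stood at 23.4 CPM at P10 and 46.5 CPM at 8 weeks, the direction seen in chondrocyte-like cells. Gbp2 had ratios of 6.05 (chondrocyte-like), 3.71 (tendon fibroblast-like) and -1.42 (endothelial-like). With 1 library per age the difference between classes was not tested for either gene.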

How the results depend on the processing

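Among the main counts, medians and sums recomputed under each alternative, 176 values kept their direction and stayed within 1.5 times (counts) or within the interval of the reported value, 28 differed and 1 changed sign. Among the further values, of single members and sums by class, 436 stayed within it and 121 differed. Thinning each cell to 2000 UMIs left 7 members higher and 0 lower in NP-like cells, 10 higher in chondrocyte-like, 0 higher and 0 lower in hypertrophic, 3 higher in tendon fibroblast-like, and 2 higher and 0 lower in endothelial-like cells. The thinned interferon medians were -0.60 (tendon fibroblasts) and -0.45 (endothelium), the share of the top 5% of NP-like cells was 13.8%, and the NP sums at 8 weeks were 835 CPM (antigen presentation) and 1611 CPM (interferon). Thinning leaves fewer UMIs and so fewer genes past the minimum, and the cause of the change in sign was not tested. Scaled to the median gene, NP-like cells had an interferon median of 0.11, 9 members higher and 2 lower, and chondrocyte-like cells 1 lower. The hypertrophic class (137 cells at 8 weeks) had 8 higher and 1 lower at a doublet limit of 0.25, 9 higher and 1 lower at a mitochondrial limit of 10%, 0 lower with interferon genes among the clustering genes, and 9 higher with a minimum of 20 UMIs. That minimum gave 10 higher in endothelial-like cells, and resolution 0.5 gave 6 higher in tendon fibroblast-like cells. The NP sums at 8 weeks were 796 and 1569 CPM with each library clustered alone, and 810.0 and 1626 CPM without cells carrying 3 or more blood or vessel marker UMIs. In NP-like cells 24 of 30 members kept the sign of their ratio in every alternative run. The others were Irf7, Ifit2, Ifi27 and Rsad2 (scaling), Stat2 (scaling, and each library alone) and Isg15 (scaling, and without blood or vessel cells). Not run for lack of cells or members were the hypertrophic class at resolution 0.5 and its thinned antigen presentation median, the tendon fibroblast class at the doublet limit and the mitochondrial limit, endothelial-like cells without vessel markers, and removal of cells with markers of another class. No paired analysis was possible because each matrix pools the 4 samples of an age. Depth limits members with few UMIs (Nlrc5, Oas1a, Oasl2, Mx1), and no replicate spread was available.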
